A study of Danio rerio with 116 samples.

Results

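CG methylation in presumptive male zebrafish at 35 dpf (days post fertilisation) is described here from 6 of the 116 libraries of the series, 3 of EGFP +ve cells and 3 of EGFP −ve control cells. The members were taken by their labels alone, as every library of a male of that age. All fish carried the vas:eGFP transgene, so the control cells came from transgenic fish as well and differed from the EGFP +ve cells by their fluorescence in the sort. Cells of the gonadal region were dissociated, passed through a strainer that holds back large cells, and sorted by fluorescence, and each library came from 1 fish that had been given a presumptive sex by the brightness of its gonad. The labels call the source of the EGFP +ve libraries germinal stem cells and that of the control libraries whole embryo, although the methods describe dissection of the gonadal region for fish of this age. The control cells are therefore a mixture of unnamed non-fluorescent cells, and methylation calls hold no marker that could check the identity of either population.

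Vasa is an RNA helicase of the germ plasm, and its promoter drives EGFP in germ cells of both sexes. Zebrafish males pass through a juvenile ovary stage before the gonad becomes a testis, and the age studied here falls into that transformation. Cytosines in CG dinucleotides carry most of the DNA methylation of fish, and most CG positions outside CG-rich promoters are methylated in somatic cells. The tip of chromosome 4 holds a ribosomal DNA cluster used by oocytes, the mitochondrial genome serves as another DNA of many copies per cell, and the long arm of chromosome 4 is rich in repeats.

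The EGFP +ve libraries A, B and C held 24075, 12020 and 12057 CG calls on 7481, 3815 and 3528 reads. The control libraries A, B and C held 19048, 38864 and 36046 calls on 5967, 11348 and 11000 reads. A call is the state of 1 CG in 1 read, and a read carried between 3.15 and 3.43 calls on average. The read names placed EGFP +ve A and B and all 3 control libraries on sequencing run 112, and EGFP +ve C alone on run 157. What belongs to the run, to the fish or to the sort therefore cannot be told apart in EGFP +ve C, and the main comparisons are given with and without it. The comparison without it is also the comparison among the 5 libraries of run 112.

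EGFP +ve A and B had more CG methylation than every control library, whereas EGFP +ve C had less than every control library. Global methylation was taken as the percentage of methylated calls in each 10 Mb window, averaged over the windows of all 25 chromosomes, and was 86.2%, 84.3% and 75.1% in EGFP +ve A, B and C. It was 77.3%, 76.6% and 78.7% in control A, B and C. The EGFP +ve cells thus averaged 81.9% ± 5.95 and the control cells 77.5% ± 1.04 (SD, n = 3 each), a difference of 4.36 percentage points that did not exceed the spread of the libraries (exact permutation test, two-sided, p = 0.4). With 3 libraries against 3 the smallest p this test can give is 0.1. Among the libraries of run 112, EGFP +ve A and B exceeded the control mean by 7.75 points, with no overlap (exact permutation test, two-sided, n = 2 and 3, p = 0.1, the smallest possible). EGFP +ve C lay 2.42 points below the control mean. Put as unmethylated share, EGFP +ve A and B held 0.655 times and EGFP +ve C 1.11 times that of the control mean.

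The gap between the EGFP +ve libraries was larger than counting error. Pooled calls of chromosomes 1 to 25 without the rDNA region, with 95% intervals that treat the calls of a read as 1 cluster, gave 85.8% (84.9 to 86.7), 84.9% (83.6 to 86.3) and 74.4% (72.9 to 75.9) in EGFP +ve A, B and C. In control A, B and C they gave 77.0% (75.9 to 78.1), 76.5% (75.7 to 77.4) and 78.8% (78.0 to 79.6). These intervals cover counting error only. EGFP +ve A had the highest global methylation of all 116 libraries and EGFP +ve C the lowest of the 59 EGFP +ve libraries, so these males held both ends of the EGFP +ve range.

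**Figure D1:**
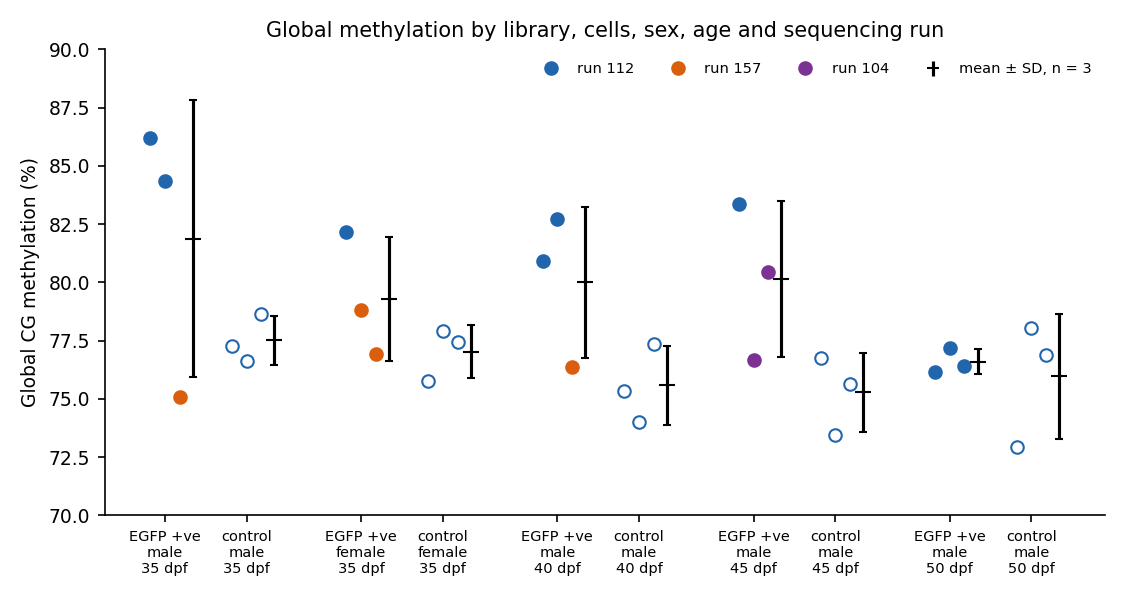
Global CG methylation in per cent (y axis) of single libraries of EGFP +ve cells (filled points) and control cells (open points) from males and females at 35 dpf and males at 40, 45 and 50 dpf, coloured by sequencing run, with the mean and SD of each group of 3 (black). EGFP +ve A and B of the males at 35 dpf lie at 86.2% and 84.3%, above their control libraries, and EGFP +ve C lies below them at 75.1%.

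In the other EGFP +ve groups split over runs 112 and 157, the libraries of run 157 were lower as well. In EGFP +ve females at 35 dpf the library on run 112 had 82.2% and the 2 libraries on run 157 had a mean of 77.9%. In EGFP +ve males at 40 dpf the 2 libraries on run 112 had a mean of 81.8% and the library on run 157 had 76.4%. Control cells of females at 40 dpf had 75.3% on run 157 and a mean of 75.8% on run 112, and control cells of males at 70 dpf a mean of 76.6% on run 157 and 75.9% on run 112. Low values also occurred on run 112, as EGFP +ve males at 50 dpf, all on that run, had 76.2%, 77.2% and 76.4%. Outside the 6 libraries, 14 EGFP +ve libraries of run 112 had 75.6 to 83.3% (median 81.0%). On run 157, 10 such libraries had 75.5 to 80.3% (median 76.3%). Control libraries outside the 6 went the other way. On run 112, 21 of them had 72.9 to 78.3% (median 75.8%), and on run 157, 6 had 75.3 to 81.1% (median 77.9%). Ages differ between the runs. The part of the run in the low value of EGFP +ve C was not tested.

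The difference between the cells was 4.36 points in males and 2.27 points in females of the same age (difference 2.09 points, exact permutation test of 400 arrangements with 3 libraries per group, two-sided, p = 0.62). Global methylation, as used here, kept the rDNA region. With pooled calls and that region left out, the differences were 4.26 points in males and 2.85 points in females (difference 1.41 points, exact permutation test, p = 0.755). Within run 112 the differences in global methylation were 7.75 points in males and 5.15 points in females, where only 1 EGFP +ve library remained (difference 2.60 points). In a check added after seeing the data, without EGFP +ve male A the difference was -0.0766 points and without EGFP +ve male C 5.48 points (exact permutation tests, p = 0.985 and p = 0.16). Males at 40 dpf averaged 79.99% ± 3.26 among EGFP +ve libraries and 75.6% ± 1.68 among control libraries (SD, n = 3 each). At 45 dpf they averaged 80.2% ± 3.34 in EGFP +ve cells and 75.3% ± 1.69 in control cells, and at 50 dpf 76.6% ± 0.532 in EGFP +ve cells and 76.0% ± 2.67 in control cells.

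Chromosomes largely, but not all, followed the order of the libraries in global methylation. EGFP +ve A lay above every control library on 25 of 25 chromosomes and EGFP +ve B on 23, the exceptions being chromosomes 10 and 23. EGFP +ve A and B together were above every control library on 92% of chromosomes, whereas EGFP +ve C was below every control library on 16 of 25 (64%) and above every one on chromosomes 4, 10 and 11. All 3 EGFP +ve libraries exceeded all 3 control libraries on 2 chromosomes (8%), which were chromosomes 4 and 11. A chromosome carried between 305 and 2075 calls in a library.

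With all 6 libraries, limma called 0 of 25 chromosomes (0%) at an adjusted p under 0.05, and 0 had an unadjusted p under 0.05. The mean of EGFP +ve cells was nevertheless higher on every chromosome, by 0.59 to 7.78 points with a median of 4.59 points and a standard error of 4.49 points, which limma shared over chromosomes. Without EGFP +ve C, limma called 23 of 25 chromosomes (92%) higher in EGFP +ve cells, with differences of 2.72 to 14.7 points and a median of 8.60 points. Chromosomes 7 and 18 were not called (limma, adjusted p = 0.0973 and 0.291), and chromosomes 7 and 23 are named for these values alone. Chromosomes of a library share its overall level, so these calls are not independent. The limma fit pooled the spread over chromosomes as if they were independent, so its p-values are too small for so few fish. After the other chromosomes of the library were subtracted, limma called 0 of 25 chromosomes with all 6 libraries (0 at an unadjusted p under 0.05) and 0 of 25 without EGFP +ve C (2 at an unadjusted p under 0.05).

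**Figure D2:**
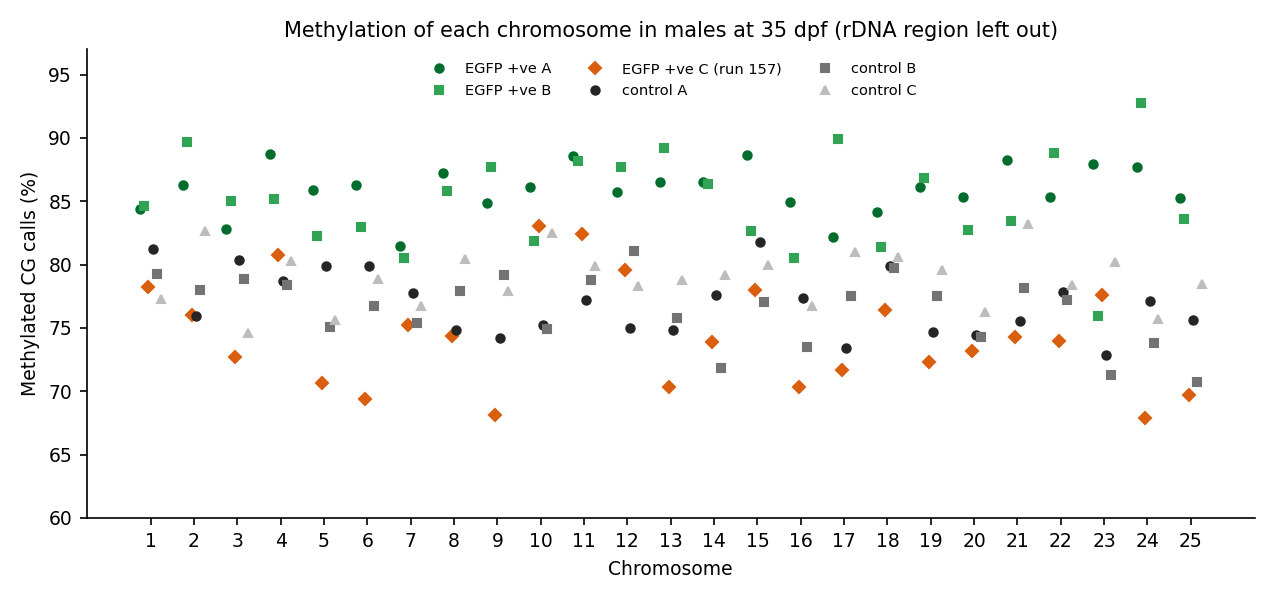
Percentage of methylated CG calls (y axis) on each chromosome (x axis) in the 6 libraries, with EGFP +ve cells in green and orange and control cells in black and grey. EGFP +ve A is above every control library on 25 of 25 chromosomes, and EGFP +ve C is below every control library on 16.

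Chromosome 11 had the largest difference, with 88.6%, 88.2% and 82.4% in EGFP +ve A, B and C and 77.2%, 78.8% and 79.9% in control A, B and C. This was 7.78 ± 4.49 points (SE, n = 3 each, limma, adjusted p = 0.567), and all EGFP +ve libraries stood above all control libraries. Chromosome 24 spread widest, with 87.7%, 92.8% and 67.9% in EGFP +ve A, B and C against 77.1%, 73.8% and 75.7% in control A, B and C. EGFP +ve A and B exceeded the control mean there by 14.7 points (limma without EGFP +ve C, spread pooled over chromosomes, adjusted p = 4.64e-06). EGFP +ve C minus the control mean was -7.62 points. After the other chromosomes of the library were subtracted, the difference without EGFP +ve C was 7.04 points (limma, adjusted p = 0.123). The next 3 chromosomes by difference were 12, 10 and 14, at 6.22, 6.15 and 6.09 points with all libraries and 8.60, 6.49 and 10.3 points without EGFP +ve C.

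At the other end, chromosome 18 had 84.2%, 81.4% and 76.4% in EGFP +ve A, B and C against 79.9%, 79.7% and 80.6% in control A, B and C. Its difference was 0.59 points with all libraries and 2.72 points without EGFP +ve C (limma, adjusted p = 0.896 and 0.291). Chromosomes 6 and 3 followed with 1.07 and 2.24 points, or 6.14 and 5.99 points without EGFP +ve C. On chromosome 6, EGFP +ve C had 69.4%, against 76.7% in the lowest control library.

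In windows of 10 Mb, 136 of 146 windows had at least 30 calls in every library. With all 6 libraries limma called 0 of 136 (0%) at an adjusted p under 0.05, and 13 had an unadjusted p under 0.05. The median difference was 4.47 points, and the mean of EGFP +ve cells was higher in 101 windows. Without EGFP +ve C, limma called 17 of 136 windows (12.5%), all higher in EGFP +ve cells, and 45 had an unadjusted p under 0.05. Every control library was exceeded by EGFP +ve A and B in 76 windows (55.9%), EGFP +ve C was below every control library in 59 (43.4%), and all 3 EGFP +ve libraries were above all control libraries in 24 (17.6%). After the rest of the library was subtracted, limma called 0 of 136 windows with all 6 libraries (4 at an unadjusted p under 0.05).

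The window with the largest difference was on chromosome 20 from 30000001 to 40000000, with 88.2%, 85.6% and 77.6% in EGFP +ve A, B and C. The control libraries A, B and C had 67.6%, 68.5% and 66.9% there. EGFP +ve cells were 16.1 ± 5.85 points higher with all libraries (SE, limma, adjusted p = 0.481) and 19.2 points higher without EGFP +ve C (limma, adjusted p = 0.0281), and all 3 EGFP +ve libraries exceeded all 3 control libraries. The next were on chromosome 2 from 40000001 to 50000000 (15.5 points), chromosome 24 from 1 to 10000000 (14.5 points), chromosome 17 from 30000001 to 40000000 (14.3 points) and chromosome 23 from 20000001 to 30000000 (14.0 points), none of which was called with all 6 libraries.

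The lowest difference was on chromosome 1 from 40000001 to 50000000, where EGFP +ve A, B and C had 74.7%, 64.6% and 79.1% and control A, B and C had 86.4%, 75.5% and 87.6%. Here EGFP +ve A and B lay below every control library, by 13.5 points against the control mean (limma without EGFP +ve C, adjusted p = 0.0722). With the rest of the library subtracted as well, it was the only 1 of 136 windows called without EGFP +ve C, and 10 had an unadjusted p under 0.05. Its difference was then -21.6 ± 5.55 points (SE, shared by limma over all windows, adjusted p = 0.0157). The window was picked for its low difference in these same libraries, and the combination of settings was chosen after seeing the data. The other 4 of the lowest 5 were on chromosomes 19, 20, 23 and 8, at -6.58, -6.24, -5.89 and -5.36 points. On chromosome 19 from 10000001 to 20000000 and on chromosome 8 from 10000001 to 20000000 the low mean lay in EGFP +ve C, with 60.4% and 52.5%. Without it these windows stood 1.84 and 3.36 points higher in EGFP +ve cells.

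Reads were next divided by their own methylation, since a higher level can come from fewer unmethylated reads or from fewer reads in mixed states. Among reads with at least 3 CG calls, fully methylated reads made up 70.2%, 68.6% and 49.9% in EGFP +ve A, B and C, and 53.6%, 53.8% and 55.9% in control A, B and C. Mixed reads, which carry both states, made up 23.2%, 24.8% and 38.9% in EGFP +ve A, B and C and 36.4%, 36.1% and 36.2% in control A, B and C. These 3 control libraries thus held nearly the same share of mixed reads (36.2% ± 0.176, SD, n = 3), and EGFP +ve libraries lay on both sides of it (29.0% ± 8.67, SD, n = 3). The control shares rest on 2953, 5952 and 5510 reads in A, B and C. Control males at 40, 45 and 50 dpf spread more, with SDs of 0.490, 2.00 and 2.93 (n = 3 each), so the close agreement does not describe control cells in general. Fully unmethylated reads made up 6.63%, 6.62% and 11.1% in EGFP +ve A, B and C and 9.92%, 10.1% and 7.89% in control A, B and C.

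Without EGFP +ve C, the EGFP +ve cells had 14.9 points more fully methylated reads, 12.2 points fewer mixed reads and 2.69 points fewer fully unmethylated reads than the control mean (exact permutation tests, two-sided, p = 0.1, 0.1 and 0.2). With all 6 libraries none of these 3 classes differed beyond the spread (differences of 8.45, -7.25 and -1.20 points, exact permutation tests, p = 0.4 each and 0.4 after adjustment over the 3 classes). EGFP +ve A had the largest share of fully methylated reads of all 116 libraries and the smallest share of mixed reads, and EGFP +ve C had the smallest share of fully methylated reads of the 59 EGFP +ve libraries. Shares of these classes depend on the methylation level of the library and were not adjusted for it. They are therefore not separate from the global levels, where EGFP +ve A and C stood at the same ends. The mixed reads themselves were 75.2%, 73.6% and 67.7% methylated in EGFP +ve A, B and C, and 68.5%, 68.8% and 66.8% in control A, B and C.

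Neighbouring calls of a read were set against each other by distance, an analysis chosen after seeing the data. Pairs up to 10 bp apart were in opposite states in 9.29%, 9.33% and 14.0% of cases in EGFP +ve A, B and C and in 11.9%, 12.2% and 12.9% in control A, B and C. Pairs over 60 bp apart were in opposite states in 13.0%, 17.2% and 24.8% of cases in EGFP +ve A, B and C and in 25.7%, 24.7% and 25.5% in control A, B and C. Both EGFP +ve A and EGFP +ve B therefore stood below every control library at both distances, by 3.03 and 10.2 points against the control mean. EGFP +ve C was above every control library at the short distance and within the control range at the long one. With all 6 libraries the differences were -1.48 and -6.97 points (exact permutation tests, p = 0.4 and p = 0.2, n = 3 each). The share of pairs in opposite states depends on the methylation level of the library and was not adjusted for it. These values are therefore not separate from the higher level of EGFP +ve A and B.

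**Figure D3:**
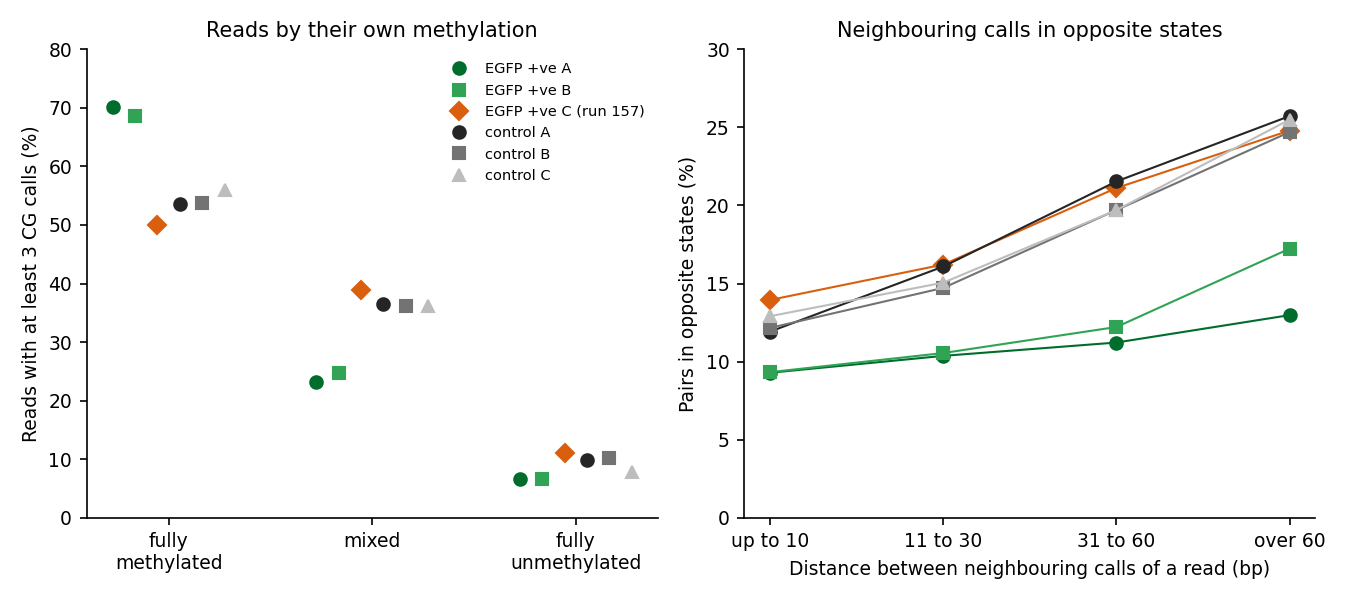
Left, percentage of reads with at least 3 CG calls (y axis) that were fully methylated, mixed or fully unmethylated in each of the 6 libraries; right, percentage of neighbouring calls of a read in opposite states (y axis) by their distance in bp (x axis). Mixed reads make up 23.2% and 24.8% in EGFP +ve A and B and at least 36.1% in the control libraries.

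The number of CG calls in a read follows the local density of CG positions and the length of the read. Reads with 1 call were methylated at 87.4%, 85.7% and 72.8% in EGFP +ve A, B and C and at 77.8%, 77.3% and 78.1% in control A, B and C. Reads with 2 to 3 calls had 89.6%, 88.4% and 75.7% in EGFP +ve A, B and C and 78.4%, 78.3% and 80.2% in control A, B and C. Reads with 4 to 7 calls had 86.5%, 86.8% and 75.6% in EGFP +ve A, B and C and 78.1%, 77.7% and 79.6% in control A, B and C. In these 3 classes EGFP +ve A and B stood above and EGFP +ve C below every control library. Reads with 8 or more calls, the CG-dense ones, had 77.5%, 74.7% and 70.4% in EGFP +ve A, B and C and 71.4%, 71.4% and 75.3% in control A, B and C, so that EGFP +ve B fell inside the control range.

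Without EGFP +ve C the differences were 8.87, 10.1, 8.20 and 3.38 points in the order of these classes (exact permutation tests, two-sided, n = 2 and 3, p = 0.1 for the first 3 and p = 0.3 for CG-dense reads). With all 6 libraries they were 4.26, 5.60, 4.53 and 1.48 points (exact permutation tests, p = 0.4, 0.4, 0.4 and 0.7). Reads with 1 call were 25.0 to 29.0% of reads in EGFP +ve libraries and 24.3 to 27.0% in control libraries, and CG-dense reads were 5.84 to 6.80% and 5.66 to 7.27%. The 8 exact permutation tests of methylation and share over the 4 classes had a smallest adjusted p of 0.8.

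The genome was also divided by its methylation in the 54 control libraries outside these 6, in windows of 100 kb with at least 50 calls there, which was chosen after seeing the data. In windows up to 60% methylated, EGFP +ve A, B and C had 71.2%, 69.0% and 52.2% and control A, B and C had 56.6%, 60.7% and 64.0%. In windows over 90% methylated, EGFP +ve A, B and C had 93.9%, 91.0% and 85.4% and control A, B and C had 84.3%, 87.5% and 85.7%. EGFP +ve A and B were above every control library in all 5 classes, by 9.65 points in the lowest class and 6.63 points in the highest (exact permutation tests, n = 2 and 3, p = 0.1 each). With EGFP +ve C included the differences were 3.69 and 4.28 points (exact permutation tests, n = 3 each, p = 0.6 and p = 0.3). Without EGFP +ve A the difference of the lowest class was 0.152 points, and with windows of 1 Mb in place of 100 kb and all 6 libraries it was 15.0 points. The number of 1 Mb windows in that class is not given here, and the window sizes were not tested against each other. In the 100 kb windows, the unmethylated share of EGFP +ve A and B was 0.756 times that of control cells in the lowest class and 0.532 times in the highest. EGFP +ve C lay below every control library in 4 of the 5 classes, by 8.25 points against the control mean in the lowest class, and inside the control range in the highest.

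At single CG positions with at least 1 call in the other control libraries, likewise compared after seeing the data, those only ever methylated there were taken first. Here EGFP +ve A, B and C were methylated in 94.7%, 93.3% and 85.4% of calls and control A, B and C in 85.1%, 87.8% and 87.9%. Positions that other control libraries had only ever shown unmethylated were methylated in 54.8%, 57.1% and 33.8% of calls in EGFP +ve A, B and C and in 38.7%, 39.5% and 45.9% in control A, B and C. Control cells themselves were thus often methylated at positions of the second kind. Both EGFP +ve A and EGFP +ve B were above every control library in both classes of position, by 7.07 and 14.6 points against the control mean (exact permutation tests, n = 2 and 3, p = 0.1 each). With EGFP +ve C included the differences were 4.19 and 7.22 points (exact permutation tests, n = 3 each, p = 0.3 and p = 0.4). At positions with at least 2 calls in the other control libraries, the differences with all 6 libraries were 1.25 and 1.24 points (exact permutation tests, n = 3 each, p = 0.8 and p = 0.9). Positions called once there were not compared alone, and the cause of the smaller differences was not tested.

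**Figure D4:**
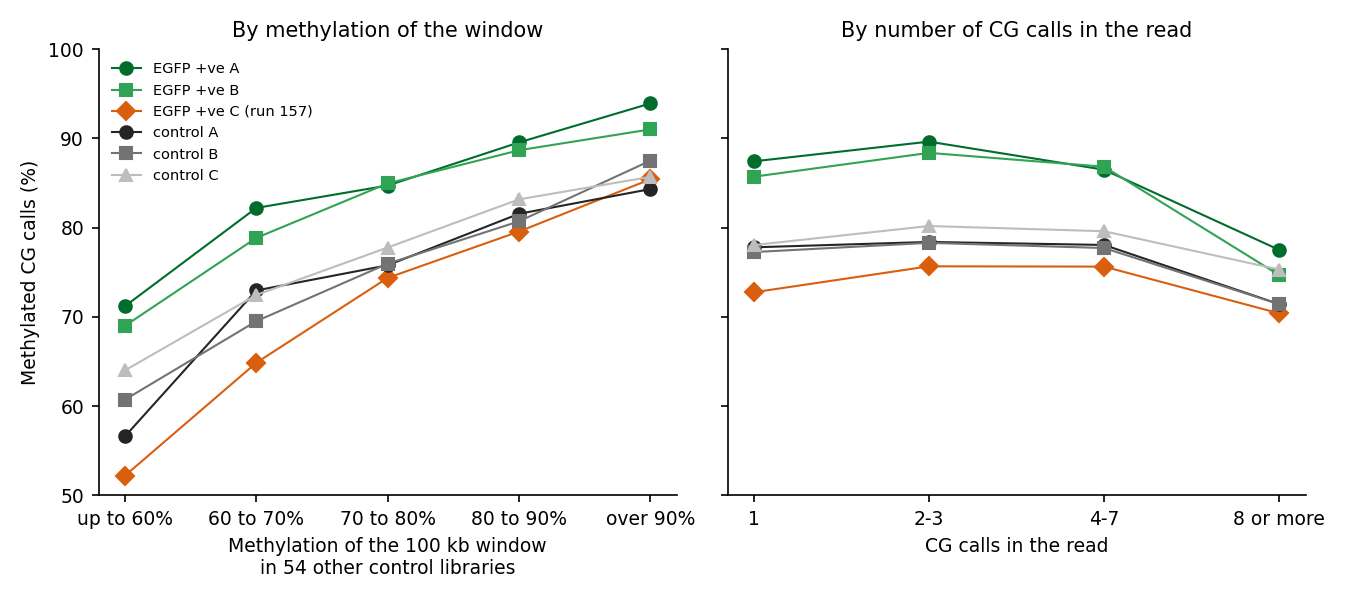
Percentage of methylated CG calls (y axis) in the 6 libraries, left by the methylation of the surrounding 100 kb window in 54 other control libraries and right by the number of CG calls in the read. EGFP +ve A and B lie above every control library in all 5 classes of windows, and their distance from control cells is smallest in reads with 8 or more calls, at 3.38 points.

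Chromosome 4 carries the rDNA cluster, and its long arm was taken as positions from 30 Mb. With the rDNA region left out, the whole chromosome was methylated at 88.7%, 85.1% and 80.8% in EGFP +ve A, B and C and at 78.7%, 78.4% and 80.3% in control A, B and C. The difference was 5.75 ± 4.49 points (SE, limma, adjusted p = 0.567). Without EGFP +ve C it was 7.80 points (limma, spread pooled over chromosomes, adjusted p = 0.00577), in a setting where 23 of 25 chromosomes were called. With the other chromosomes of the library subtracted as well, it was -0.116 points (limma, adjusted p = 0.961). The long arm had 92.3%, 83.3% and 86.9% in EGFP +ve A, B and C and 86.5%, 85.5% and 82.9% in control A, B and C, so that the groups overlapped (difference 2.56 points, exact permutation test, n = 3 each, p = 0.4). Without EGFP +ve A, B or C in turn the difference was 0.169, 4.64 and 2.87 points (exact permutation tests, n = 2 and 3, p = 1, 0.1 and 0.5). When the arm was taken from 40 Mb, all EGFP +ve libraries exceeded all control libraries, by a mean of 4.48 points (exact permutation test, n = 3 each, p = 0.1, the smallest possible). The rest of chromosome 4 had 84.3%, 87.2% and 71.2% in EGFP +ve A, B and C and 71.0%, 70.8% and 77.4% in control A, B and C. Relative to the other chromosomes of the library, the long arm differed by 6.65 points in EGFP +ve A, -1.59 points in EGFP +ve B and 12.8 points in EGFP +ve C, against 9.55, 9.02 and 4.15 points in control A, B and C. The difference between the cells was -1.62 points with all libraries and -5.05 points without EGFP +ve C (exact permutation tests, p = 0.8 and p = 0.3). These values rest on 713, 288 and 328 calls in EGFP +ve A, B and C and on 406, 860 and 790 in control A, B and C.

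On the unplaced scaffolds all EGFP +ve libraries, EGFP +ve C included, exceeded all control libraries, as on chromosomes 4 and 11. They were methylated at 89.3%, 84.3% and 82.2% in EGFP +ve A, B and C and at 79.2%, 77.4% and 81.1% in control A, B and C. Their difference amounted to 6.07 points (exact permutation test, two-sided, n = 3 each, p = 0.1, the smallest possible, and 0.2 after adjustment over methylation and share of reads), and 7.60 points without EGFP +ve C (exact permutation test, n = 2 and 3, p = 0.1). EGFP +ve C exceeded the highest control library by less than its counting error, with a 95% interval of 75.4 to 89.1% over 338 calls. With the mean over reads in place of pooled calls, the difference was 7.14 points (exact permutation test, n = 3 each, p = 0.2). That p is above the smallest possible, so the groups were not fully apart by this measure. On the scaffold with most calls, EGFP +ve A and B lay below every control library. It had 84.6%, 86.8% and 87.9% of 52, 53 and 33 calls in EGFP +ve A, B and C. Control A, B and C had 94.5%, 87.8% and 91.5% of 73, 131 and 201 calls there. With that scaffold left out the difference over the others was 8.17 points (exact permutation test, n = 3 each, p = 0.1). Scaffolds took up 1.95%, 2.46% and 2.44% of reads in EGFP +ve A, B and C and 2.48%, 2.26% and 2.33% in control A, B and C, with overlapping groups.

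The rDNA region on chromosome 4, from 76313463 to 76330850 in the coordinates of the files, held few reads in both kinds of cell. It held 4, 2 and 2 reads in EGFP +ve A, B and C and 1, 7 and 2 in control A, B and C. The shares were 0.0535%, 0.0524% and 0.0567% of reads in the EGFP +ve libraries and 0.0168%, 0.0617% and 0.0182% in the control libraries, and control B exceeded every EGFP +ve library. On the log2 scale with 0.5 reads added the difference was 0.96 (exact permutation test, two-sided, n = 3 each, p = 0.3). It was 0.90 without EGFP +ve C and 1.45 without control B (exact permutation tests, p = 0.4 and p = 0.1). At this depth 3 reads make 0.0401 to 0.0850% of an EGFP +ve library, so differences of this size were not detectable. EGFP +ve females of the same age held 601, 58 and 5 reads there, or 2.33%, 0.257% and 0.151% of reads. EGFP +ve males A, B and C at 40 dpf held 29, 247 and 19 reads, or 0.275%, 7.96% and 0.316%. At 45 dpf they held 44, 2 and 4 reads (0.715%, 0.0187% and 0.0417%), and at 50 dpf 6, 6 and 117 (0.0377%, 0.0510% and 0.960%). Larger shares were thus not confined to females.

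The methylation of the rDNA region rested on these few reads. It was 66.7% of 30 calls, 21.2% of 33 calls and 0% of 31 calls in EGFP +ve A, B and C, and 92.3% of 13 calls, 47.8% of 67 calls and 95.5% of 22 calls in control A, B and C. The EGFP +ve cells averaged 29.3% ± 34.1 and the control cells 78.5% ± 26.7 (SD, n = 3 each), a difference of -49.2 points with overlapping groups (exact permutation test, two-sided, p = 0.2). Without EGFP +ve C the difference was -34.6 points (exact permutation test, n = 2 and 3, p = 0.3). Both reads of EGFP +ve C were unmethylated throughout, with 12 and 19 calls, and both reads of EGFP +ve B were largely unmethylated, with 4 of 17 and 3 of 16 calls methylated. Control B also held 2 fully unmethylated reads, of 12 and 15 calls, among its 7.

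**Figure D5:**
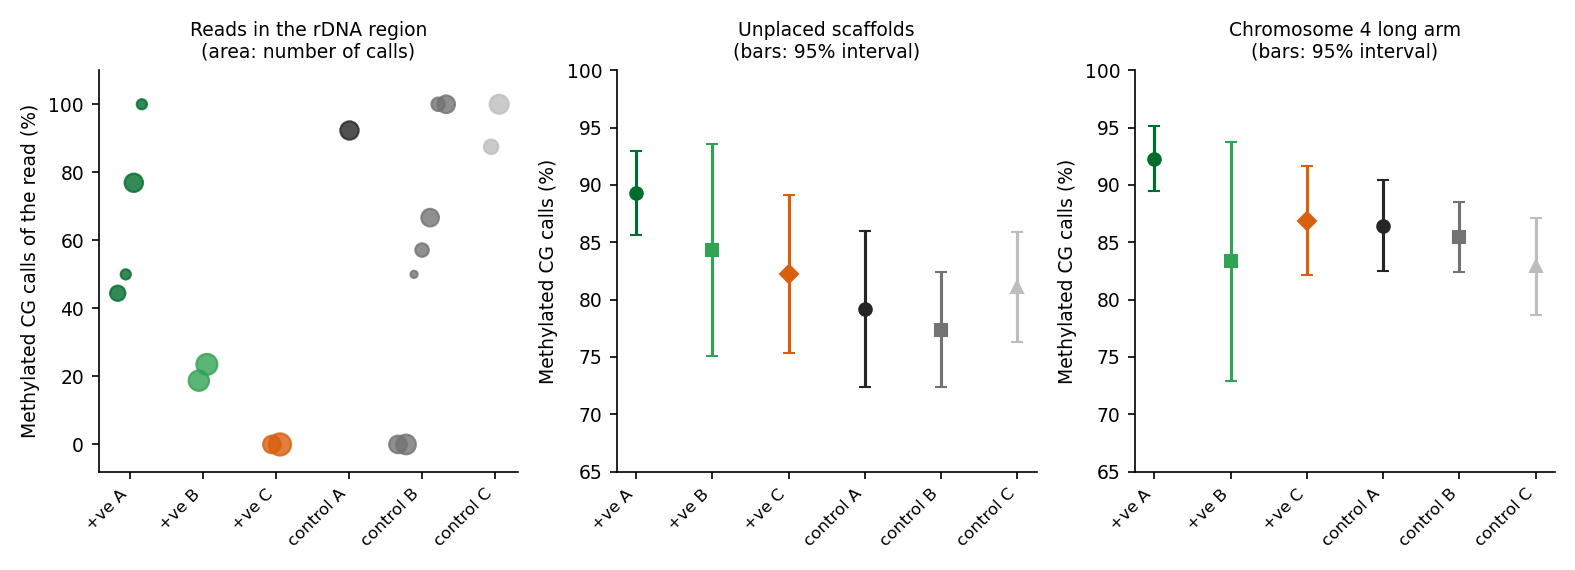
Left, each read of the rDNA region by its percentage of methylated CG calls (y axis), with the area of a point for its number of calls; middle and right, methylation of the unplaced scaffolds and of the long arm of chromosome 4 in per cent, with 95% intervals clustered by read, in the 6 libraries (x axis). The rDNA plot holds 8 reads from EGFP +ve libraries and 10 from control libraries, and the scaffolds are at 82.2% or more in EGFP +ve libraries and at 81.1% or less in control libraries.

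Mitochondrial reads numbered 16, 6 and 0 in EGFP +ve A, B and C and 2, 13 and 8 in control A, B and C. EGFP +ve A and B had larger shares than every control library, at 0.214% (0.132 to 0.347, Wilson 95% interval) and 0.157% (0.0721 to 0.343), against 0.0335%, 0.115% and 0.0727% in control A, B and C. EGFP +ve C had 0 of 3528 reads, which allows a share of up to 0.0850% by the 3 reads that a count of 0 allows, and of up to 0.109% by the Wilson interval. The difference was 0.16 on the log2 scale with 0.5 reads added (exact permutation test, two-sided, n = 3 each, p = 1), and 1.41 without EGFP +ve C (exact permutation test, n = 2 and 3, p = 0.2). Both limits lie above the shares of control A and C and below that of control B, so a share in EGFP +ve C below those of control A and C was not detectable at this depth.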

How the data were processed

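Low coverage whole genome bisulfite sequencing libraries had been made by post-bisulfite adaptor tagging. The authors trimmed reads with Trim Galore and mapped them with Bismark 0.19.0, and deposited 1 file of CG calls per library, not normalised and not pooled (unit other: 1 line per call). Per the labels the build is GRCz10, whereas the methods name GRCz11. The highest call on chromosome 4 is at 76624474, and no position was converted. Sequencing runs were read from read names. The rDNA region was placed in earlier work where calls were densest in EGFP +ve libraries of 21, 25 and 28 dpf, none of which is compared here.

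Percentages and counts were computed with Python 3.11.15, pandas 2.3.3, numpy 2.4.6 and scipy 1.17.1, and plots with matplotlib 3.10.9. Single values were compared by exact permutation over libraries, with Benjamini-Hochberg adjustment within a family. Chromosomes and 10 Mb windows were fitted with limma 3.58.1 in R 4.3.3, with Benjamini-Hochberg adjustment over all features. The fit was also run on simulated calls in which some chromosomes were lowered by more than any chromosome difference reported here. Increases were not simulated, so that run does not show whether the fit would detect differences of the size seen. Libraries with fewer than 10 rDNA calls would have been left out, which applied to none. Named regions were chromosome 4 with its long arm, the rDNA, the mitochondrial genome, the scaffolds, the 5 largest and 3 smallest differences among chromosomes, and the 5 largest and 5 lowest among windows. Members and lists were chosen with earlier results of these data known. Replicates are single fish, and exact permutation p-values measure the spread between these libraries. The limma p-values also draw on the spread of other chromosomes or windows of the same libraries, which are not independent.

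Deviations from the group means over 25 chromosomes correlated weakly between libraries with the same letter (r of 0.258, 0.350 and 0.103 for A, B and C). Between different letters r lay between -0.532 and 0.177, and EGFP +ve A with control C (0.177) exceeded the pair C. These values do not settle whether letters mark pairs, and the labels do not say what a letter marks. The letters were taken as pairs for a replicate block as an alternative only. Alternatives changed windows, weights, scale, minimum calls (also per position), the start of the long arm, denominators and libraries. Genes and genomic features were not analysed here, because no annotation of the build was used.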

Additional observations from a re-analysis of the deposited data

How the results depend on the processing

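EGFP +ve C decided the calls. Without it, or equally among the libraries of run 112, limma called 23 chromosomes and 17 windows in place of 0, so leaving out single libraries gave between 0 and 23 chromosomes and between 0 and 17 windows, all called higher. The global difference stayed positive under all 15 alternatives, from 2.20 to 7.75 points (exact permutation p between 0.1 and 0.8), and the scaffold difference under all 10, from 4.07 to 8.17 points. Of 596 alternatives over 54 results, 25 reversed the direction. The other 571 include alternatives for the numbers of called chromosomes and windows, which have no direction, and in 4 of these the number moved. Also among the 571 were 53 fits with the letters as a replicate block. With 3 libraries per group the block leaves every difference as it was, so those 53 fits could not change a direction. No call changed in them, and the global difference kept its 4.36 points (exact permutation p = 0.5, where 3 pairs cannot go below 0.25).

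Some directions turned. Chromosomes 3, 6 and 18, named for their small differences, were at -2.10, -3.36 and -3.83 points once the other chromosomes were subtracted. That is a different quantity, which is negative for any chromosome with a smaller difference than the rest of the library. Windows on chromosomes 8 and 19 were at 3.36 and 1.84 points within run 112. Other reversals were the mitochondrial share by CG calls (-0.21 on the log2 scale), fully unmethylated reads with at least 5 calls (0.169 points) and the long arm from 40 Mb minus the other chromosomes (0.302 points). Leaving out single libraries gave ranges of -1.17 to 2.72 points for chromosome 18, -0.19 to 5.99 for chromosome 3, -2.30 to 6.14 for chromosome 6, -11.0 to 1.84 for the window on chromosome 19 and -10.9 to 3.36 for that on chromosome 8. They were -5.05 to 2.16 points for the long arm minus the other chromosomes, -0.0766 to 5.48 for males minus females, -0.57 to 1.41 (log2) for the mitochondrial share, -0.163 to 0.0934 points for the share of scaffold reads and -0.179 to 3.38 for CG-dense reads. Shares of reads with 1, 2 to 3 and 8 or more calls ranged from -0.0199 to 2.01, from -0.895 to 0.121 and from -0.496 to 0.311 points. The causes of these reversals were not tested.

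Depth limits the rDNA and mitochondrial values most, at 0 to 16 reads per library, and groups of 3 cannot reach an exact p under 0.1. Methylation by gene, exon or promoter was not run.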

Other observations

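Mitochondrial calls were mostly unmethylated. In EGFP +ve A, 4 of 54 calls were methylated, on 2 of 16 reads, and in EGFP +ve B 0 of 23. In control A and B none of 7 and none of 35 calls were methylated. Control C stood apart from the other libraries with 11 of 28 methylated calls (39.3%), on 4 of its 8 reads. The number of reads is too small for a comparison between the cells.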
